A study of Homo sapiens with 9 samples.

Results

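The 79 genes described here are the well-expressed members of the ZNF series of zinc finger genes in human cranial neural crest cells (CNCCs). They were chosen on measured values, as the symbols made of ZNF plus a number that had at least 500 reads in each of the 3 libraries taken at 0h, before SOX9 depletion. Of 18970 gene symbols in the tables, 468 were ZNF plus a number. A further 20 of the 468 had no read at 0h, and 369 had reads but missed the minimum, 199 of them with at least 100 reads in their lowest 0h library. Another 36 symbols that end in letters after the number were left out by the rule. The minimum was met by 5204 genes in all, so 5125 other genes were available for comparison. Just inside it lay ZNF302, ZNF579 and ZNF337, with 501, 509 and 511 reads in their lowest 0h library. Just outside lay ZNF557, ZNF703 and ZNF12, with 490, 484 and 482 reads. Summed over the 0h libraries, the members ran from 1782 reads for ZNF302 to 25706 for ZNF106, with a median of 3555. After ZNF106, the most reads were counted for ZNF618 (25622) and ZNF428 (23625).

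Most ZNF genes encode C2H2 proteins, in which a pair of cysteines and a pair of histidines hold a zinc ion in each finger and rows of fingers read DNA or, in some members, RNA. A large subset carries a KRAB box, which recruits the corepressor TRIM28 (KAP1) and with it the histone methyltransferase SETDB1, and is known for silencing transposable elements. Many KRAB genes lie in clusters on chromosome 19 that arose by repeated duplication, and transcription factor mRNAs as a class are known for short half-lives.

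SLAM-seq asks how much of each gene's RNA was made during a short labelling pulse. Cells took up 4-thiouridine (4sU, 100 uM) for 2 h, alkylation turned the incorporated base into a T>C conversion in 3′ end sequencing reads, and reads with such a conversion (T>C reads) were counted beside all reads (total reads). The CNCCs, at passage 4, came from H9 human embryonic stem cells in which both the degron FKBP12-F36V and the tags mNeonGreen and V5 were fused to SOX9, and dTAGV-1 at 500 nM was used to degrade the tagged protein for 3 h or 24 h. The 0h, 3h and 24h groups held 3 libraries each, from the same 3 cultures, S9CC13_R6, S9CC47_R5 and S9CC47_R6, which stand for 2 edited clones and 2 differentiation batches. The tag was carried by all groups, as was the 4sU pulse, which began 1 h and 22 h after dTAGV-1. The labels list the 500 nM dose for 0h as well, while the protocol describes vehicle (DMSO) as the control, and the labels give the SOX9 level as 100 at 0h and 0 at 3h and 24h. No library without 4sU was analysed here, so the share of T>C reads that arises without label is not known. With 3 cultures a group, p-values measure the spread between these cultures, not between donors.

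Libraries held 16955633 to 28782678 total reads and 3130673 to 5475800 T>C reads. The T>C share of a whole library was 15.9% to 21.3%. SOX9 mRNA, which does not check the loss of SOX9 protein, was at 736 to 783 CPM (counts scaled to equal library totals) at 0h, 1141 to 1472 at 3h and 1614 to 1862 at 24h. All 14 CNCC markers were listed, 11 of them above the read minimum, with summed levels of 3951 to 4095 CPM at 0h and 5251 to 5707 at 24h. SOX9 is itself 1 of the 14. Its own rise, from a mean of 764 to 1754 CPM, makes up much of the rise of the sum. Of 9 pluripotency markers, POU5F1, NANOG, TDGF1, PRDM14 and ZFP42 were at or near 0, while LIN28A, L1TD1, DPPA4 and DNMT3B had reads, and the sum was 830 to 910 CPM at 0h and 764 to 842 at 24h. The 7 neural progenitor markers summed to 12.4 to 18.4 CPM at 0h and 8.39 to 10.8 at 24h, with SOX1 and HES5 at 0. The 7 chondrocyte markers summed to 340 to 372 CPM at 0h and 173 to 225 at 24h, nearly all of it COL2A1, with COL10A1 at 0 and ACAN, MATN1, MATN3 and CNMD under 1.

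Reads of the ZNF genes carried label far more often than reads of other genes at the same level. In the 0h libraries the median T>C share over the 79 genes was 35.6% in culture S9CC13_R6, 41.0% in S9CC47_R5 and 38.0% in S9CC47_R6, the order used for all culture values that follow. To compare like with like, each member was set against the other genes whose summed 0h reads fell in the same band, 0.5 wide on the log2 scale, and the medians of those genes were 25.2%, 27.2% and 26.1%. The members lay above their band by a median of 11.2, 16.5 and 13.4 percentage points, or 13.7 ± 2.65 (SD, n = 3). The members' median was above that of the other genes in each culture, although the shares of single genes overlapped widely. The members supplied 0.641% to 0.698% of total reads at 0h but 1.24% to 1.27% of T>C reads.

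A total of 68 members (86.1%) lay above the median of their band in 3 of 3 cultures at 0h, where 46.0% of all 5199 genes with a band did. Below it in 3 of 3 were 8 members (10.1%), against 44.9% of all genes. The 8 were ZNF428, ZNF219, ZNF664, ZNF593, ZNF358, ZNF511, ZNF512 and ZNF444, while ZNF787, ZNF704 and ZNF423 lay above in some cultures and below in others. In all 9 libraries, 65 members (82.3%) stayed above their band, compared with 42.0% of all genes. By their mean share, 51 members lay above the 75th percentile of the band, 18 above the 90th and 3 below the 25th. The level was chosen by the rule and the share was not, although both come from the same libraries.

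The gap was present across the range of levels. In the band of 2048 to 2896 summed reads, 24 members had a median share of 43.4% against 27.0% for the other genes. From 4096 to 5793 reads, 11 members stood at 34.9% against 24.3%. Between 8192 and 11585 reads, 7 members stood at 35.7% against 18.6%. In the highest band, 23170 to 32768 reads, the 3 members were ZNF106, ZNF618 and ZNF428, and their median of 17.3% was close to the 15.8% of 157 other genes. Each share rests on a finite number of reads, and the Wilson 95% half-width ran from 0.534 to 4.55 points over members and libraries, with a median of 2.64. It covers counting error only, since no molecular identifiers were stated.

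**Figure D1:**
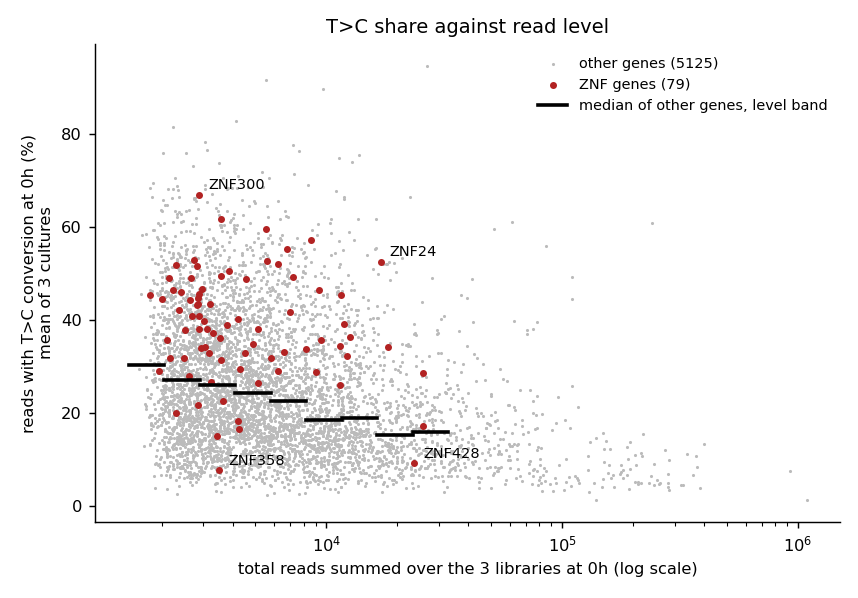
T>C share at 0h (percent, mean of 3 cultures) against summed total reads at 0h (log axis) for 79 ZNF genes and 5125 other genes that passed the read minimum, with the median of the other genes in each level band. Most ZNF genes lie above the line of the other genes, whose median falls from 30.3% in the lowest band to 15.8% in the highest.

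The highest share belonged to ZNF300, a KRAB gene on chromosome 5, with 64.2%, 70.4% and 66.2% at 0h (66.9% ± 3.16). It was above 99.1% of the other genes in its band and stayed at 66.8% ± 4.22 at 3h and 68.9% ± 1.21 at 24h. ZNF275 followed with 58.0%, 67.0% and 59.9%. ZNF521, a cofactor with many fingers that binds EBF factors and the NuRD complex, had 53.8%, 66.0% and 58.5%. In each of these genes S9CC47_R5 was the highest culture, as it was for the median over all members at 0h. ZNF281, a GC-box factor studied in pluripotency and epithelial-mesenchymal transition, stood at 57.2% ± 3.28, and ZNF451, a SUMO ligase, at 55.3% ± 4.06. ZNF24, a factor with a SCAN domain, combined a high share (52.5% ± 3.65) with a high level of 17007 summed reads, and lay 37.3 points above its band.

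At the other end, ZNF358 had 6.93%, 9.34% and 6.78% at 0h (7.68% ± 1.44), 18.5 points below its band. ZNF428 had 8.44%, 9.71% and 9.65%, below its band by 6.45 points. ZNF511 was the steadiest of the low genes, at 15.1% ± 0.291. All 3 stood far below the 5 highest members, whose lowest single library at 0h was 51.0%. Both ends were picked by rank of these same shares, so a distance between them follows from the choice. ZNF219, a described partner of SOX9 on cartilage gene promoters, had 15.5%, 20.1% and 14.1%. ZNF106, an RNA-binding regulator of splicing, had 15.8%, 18.3% and 17.8%, and unlike the other low genes it lay slightly above its band, by 1.60 points. For scale, 39 cytosolic ribosomal protein genes, whose mRNAs are long-lived, had a median of 5.29% at 0h, and 7 well-expressed immediate-early genes, whose mRNAs are short-lived, had 54.0%.

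**Figure D2:**
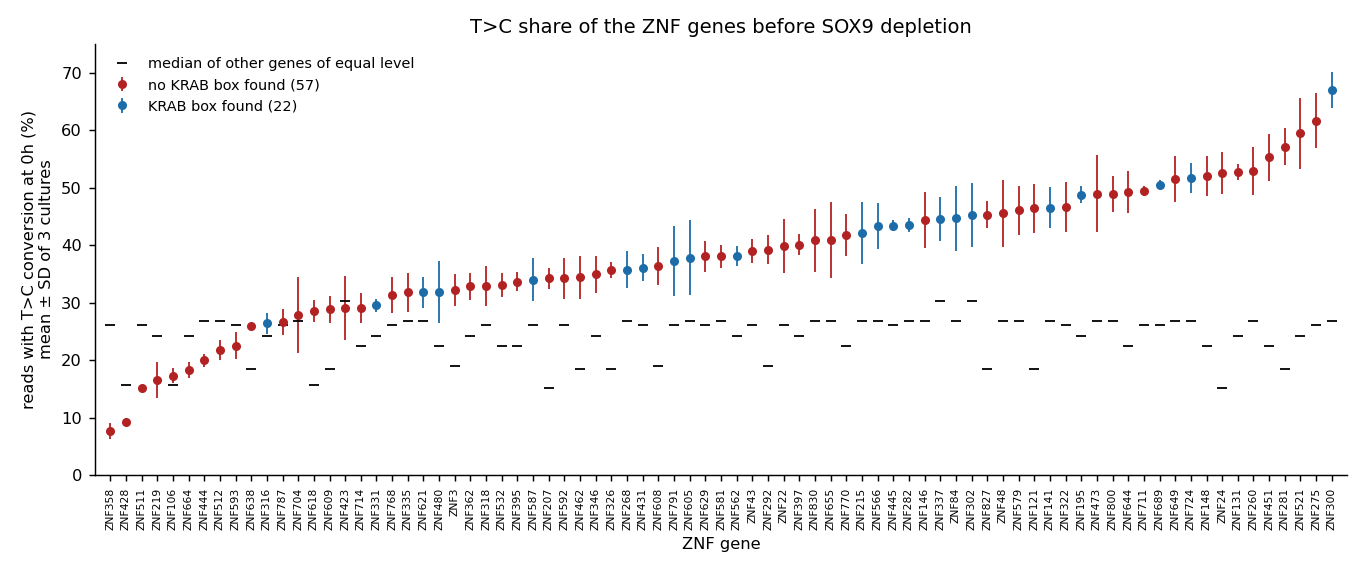
T>C share at 0h (percent) of the 79 ZNF genes in order, as the mean with the SD of 3 cultures as error bars, coloured by whether a KRAB box was found, and with the median of other genes in the same level band as a dash. The order runs from ZNF358 at 7.68% to ZNF300 at 66.9%, and 68 genes lie above their band in every culture.

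The quartiles of the mean share over members were 31.8% and 46.2%, and the median SD over cultures was 3.15 points. Neighbours in the order lay closer together than that SD, apart from the steps between ZNF300 and ZNF275, between ZNF638 and ZNF593 and between ZNF511 and ZNF428. Over the 9 libraries, ZNF146 varied most, from 32.5% to 54.9%. ZNF281 ran from 42.1% to 61.1% and ZNF322 from 36.5% to 55.1%.

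Members were also grouped by described roles. Of 21 genes listed for general chromatin or transcription functions, 12 met the minimum, with a median share of 42.3% (21.8% to 57.2%), and 11 of the 12 lay above their band in 3 of 3 cultures. They included ZNF281, ZNF24 and ZNF644, a partner of the H3K9 methyltransferases G9a and GLP (49.2%), while ZNF512 was the one below, at 21.8% ± 1.78. Among 20 listed genes known for silencing transposons or guarding imprints, 5 met the minimum, and 5 of 5 lay above their band, from ZNF268 at 35.8% ± 3.20 to ZNF649 at 51.5% ± 4.04. ZNF445, which protects imprinted loci, was at 43.3% ± 0.961.

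Of 18 developmental genes listed, 8 met the minimum, with a median share of 31.4%, from ZNF219 at 16.6% ± 3.10 to ZNF521 at 59.4% ± 6.12, and 6 lay above their band. ZNF423, the paralog of ZNF521 and a partner of EBF and SMAD factors, was at 29.0%. Members that act on RNA, ribosomes or the spindle had a median of 32.9% (7 of 12 listed met the minimum, 6 above their band). In this group ZNF207 (BuGZ), which loads BUB3 at kinetochores, had 34.2% ± 1.77 and lay above its band in 3 of 3 cultures, and ZNF593, with a role in ribosome assembly, had 22.5% and lay 3.65 points below. Role lists are descriptions, and the difference between them was not tested.

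Members in which a KRAB box was found were without exception above their band. A pattern search of the GENCODE protein of each member found a KRAB box in 22, and 22 of 22 lay above in 3 of 3 cultures, with a median share of 42.7% (26.4% to 66.9%). Of the 57 members in which the pattern was not found, a group that can hold diverged or missed boxes, 46 lay above and 8 below, with a median of 36.4%. KRAB members had fewer reads (median sum 2874 against 4210), and the gaps to genes of equal level were close, at 14.5 points with the box and 13.7 without. The same search counted fingers. The 36 members with 10 or more fingers had a median share of 40.9%, with 35 above their band and 0 below, at a gap of 16.5 points. The 20 with fewer than 5 fingers had 33.3%, with 15 above and 4 below, at a gap of 11.3 points.

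The 22 members on chromosome 19 had a median share of 38.1%, with 18 above their band, 3 below and a median gap of 12.04 points. The 57 on other chromosomes also had a median of 38.1%, with 50 above, 5 below and a gap of 14.1 points. The 34 members with another ZNF gene within 100 kb had a median share of 39.5% at 2876 summed reads, and the 45 without one had 35.7% at 4504 reads, while their gaps to genes of equal level were 14.0 and 14.1 points. None of these differences between subgroups was tested. Clustered ZNF genes are near copies of each other and can share reads. The methods let the mapper report several alignments per read and leave the filter step at its default, and how such reads entered the counts was not examined here, so the values of single clustered members are uncertain.

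A read can show a conversion only where it holds a T, so T content was set beside the shares. The 3′ UTRs of the members held a median of 29.9% T, slightly less than the 30.8% of the other genes, and in bands of level and T content together the 0h gap was 15.1 points. Those bands used T content of the whole 3′ UTR, not of its end, where the reads lie. Across the 79 members, the share went with T content of the 3′ UTR at Spearman's rho 0.40, and across other genes at 0.32. For T content of the last 250 bases, rho was 0.24 across members and 0.36 across other genes. Genes are not independent replicates, and these are descriptions. In the last 250 bases of the 3′ UTR, ZNF300 had 42.4% T and ZNF358, whose UTR is 76 bases long, 21.1%, yet ZNF428, with the second lowest share, had 38.0% T. Members' 3′ UTRs were longer (median 2317 bases against 1454), but among members the length went with the share at only 0.08, compared with 0.37 among other genes. The AU-rich pentamer ATTTA, a core of elements known for unstable mRNAs, occurred 2.02 times per kb of 3′ UTR in the median member and 1.74 times in other genes.

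Zinc finger genes of like families also lay above their bands, while the proteins that KRAB factors recruit had shares near theirs. All 8 well-expressed ZBTB genes, which pair a BTB domain with zinc fingers, lay above their band in 3 of 3 cultures, with a median share of 50.9%. So did 3 of 3 ZSCAN or ZKSCAN genes (47.4%) and 2 of 2 ZFP genes (37.9%). The median gaps at 0h were 24.4 points for ZBTB, 21.3 for ZSCAN or ZKSCAN and 15.4 for ZFP genes. The ZNF members stood at 13.7 ± 2.65, so a gap of this kind was not particular to them. Of 24 listed partners of KRAB factors and heterochromatin proteins, 19 met the minimum, with a median of 19.2%, 0.63 points above their band, and 8 lay above it in 3 of 3 cultures. TRIM28 itself had 12.1% and SETDB1 45.0%.

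After SOX9 depletion the gap persisted, with its lowest value in each culture at 3h. The members' median share at 3h was 30.1%, 36.4% and 38.1%, with the cultures in the same order as before, and at 24h it was 40.0%, 40.9% and 41.8%. Their gap to genes of equal level was 10.4, 13.5 and 12.4 points at 3h, and 14.1, 16.0 and 15.8 points at 24h. It was lower at 3h than at 0h in 3 of 3 cultures (by a mean of -1.62 points, SD 1.17) and higher at 24h than at 3h in 3 of 3 (3.24 ± 0.636). Between 24h and 0h it rose in 2 of 3 cultures (1.62 ± 1.80), within the spread. The T>C share of all reads was 17.9% ± 1.82 at 3h and 20.5% ± 0.752 at 24h. It moved with the gap between 3h and 24h, being higher at 24h in 3 of 3 cultures, by 2.65 ± 1.10 points. Between 0h and 3h it did so only in part, since it changed by -2.62, -1.98 and 0.73 points and thus rose in S9CC47_R6. Both contrasts with 3h use the same 3h libraries.

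**Figure D3:**
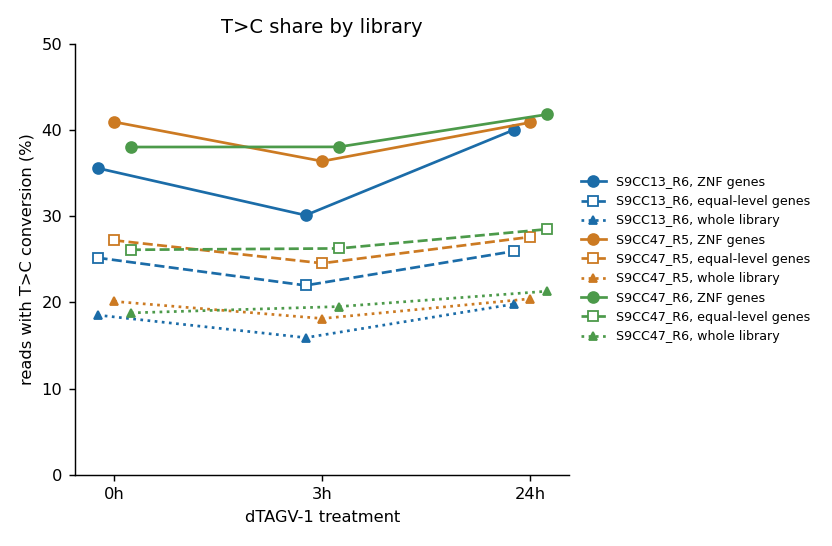
Median T>C share (percent) of the 79 ZNF genes and of other genes of equal level, and the share of the whole library, in each of the 9 libraries, by culture and time. In every library the ZNF genes lie above the others, by 10.4 to 16.5 points of median gap.

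Gene by gene, no member's share passed the test. The mean share was lower at 3h than at 0h in 75 of the 79 members and higher at 24h than at 0h in 68, as were the mean shares of whole libraries. No count over all genes stands beside these. By culture, the members' median moved by -5.47, -4.56 and 0.02 points at 3h, and that of genes of equal level by -3.21, -2.66 and 0.16. At 24h the changes were 4.43, -0.06 and 3.78 points for members and 0.76, 0.39 and 2.39 for genes of equal level. A DESeq2 or edgeR model of T>C against unconverted reads, which asks whether a gene's share moved relative to all genes, called 0 members at 3h and 0 at 24h at an adjusted p under 0.1. Over all 11561 genes edgeR called 0.208% higher and 0.0692% lower at 3h, and 0.0% either way at 24h. Without adjustment, 1 member was higher and 3 lower at 3h, and 3 were higher and 1 lower at 24h (p under 0.05).

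Few members changed in T>C reads, and those called against 0h fell. In the DESeq2 fit over 12037 genes, 1 of the 79 was lower at 3h than at 0h (1.27%, against 0.789% of all genes) and none was higher (1.01% of all genes). At 24h, 5 members were lower (6.33%, against 2.59% of all genes) and none higher (2.38%). Between 24h and 3h none passed, where 0.54% of all genes were higher and 0.598% lower. In that contrast 5 members were higher and 3 lower without adjustment (p under 0.05), edgeR called 1 (ZNF219, lower), and the fit with culture as a block called 3 (ZNF219 lower, ZNF423 and ZNF770 higher). With size factors from total reads, 3 others were higher (ZNF362, ZNF397 and ZNF827). Both contrasts with 0h share the 0h libraries, whose total reads also chose the members. Well-expressed genes are called more often than others. Of the other genes above the read minimum, 1.22% were lower and 1.57% higher at 3h, so the 3h count was close to theirs. At 24h, 4.02% of them were lower and 3.00% higher. The median log2 fold change of the members was -0.06 at 3h and 0.00 at 24h, and the median size of change at 24h was 0.09, compared with 0.20 over all genes and 0.14 over genes above the minimum.

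Total reads gave similar counts. At 3h, 1 member was lower (0.777% of all 11710 genes were) and none was higher (1.11%). Of the other genes above the read minimum, 1.02% were lower and 1.20% higher at 3h. At 24h, 7 were lower (8.86%, against 7.85% of all genes and 11.2% of genes above the read minimum) and 0 higher (7.11%). Without adjustment 1 was higher and 11 were lower (p under 0.05). Between 24h and 3h, 1 member was higher (2.51% of all genes) and 1 lower (2.88%). The share of members called lower at 24h thus lay between those of all genes and of genes above the minimum. In all, 4 members, ZNF219, ZNF608, ZNF532 and ZNF618, were lower at 24h in both T>C and total reads. In bulk RNA, fewer cells of a type and less RNA per cell cannot be told apart.

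**Figure D4:**
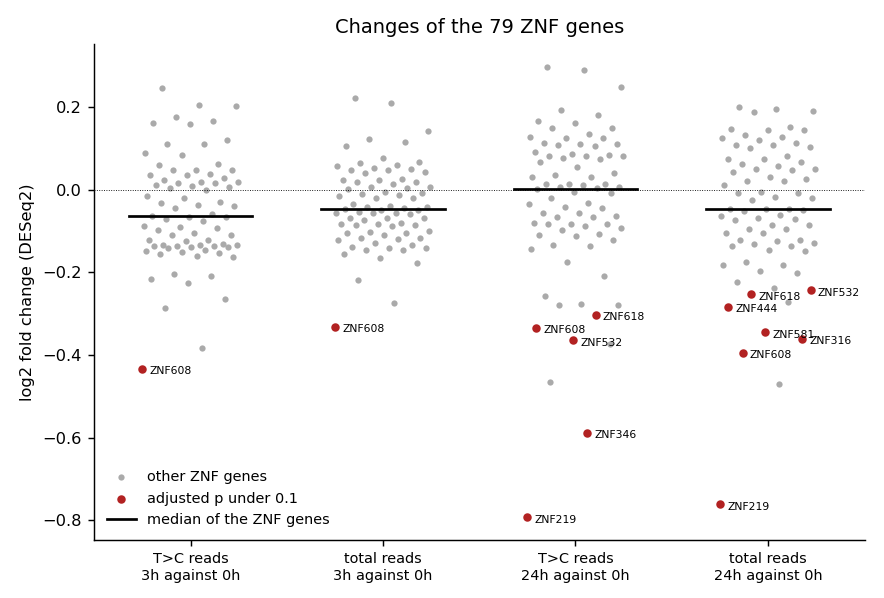
Log2 fold changes of the 79 ZNF genes in T>C reads and in total reads at 3h and 24h against 0h, with members called at an adjusted p under 0.1 marked. Most members lie near 0, and the called ones, led by ZNF219 at -0.79 in T>C reads at 24h, lie below it.

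ZNF608, a paralog of ZNF609 with a role in development, was the member already lower at 3h. Its normalized T>C reads (counts divided by DESeq2 size factors) were 1607, 1295 and 1451 at 0h, 1324, 1020 and 1032 at 3h, and 1257, 1009 and 933 at 24h. Each culture was lower at 3h than at 0h. The 24h libraries did not overlap with those at 0h, although at 3h S9CC13_R6 lay above the lowest 0h library. In the DESeq2 fit the log2 fold change was -0.43 at 3h (SE 0.09, adjusted p = 0.000651), and the later change was -0.33 (SE 0.10, adjusted p = 0.0249). Total reads were 4679, 3439 and 4108 at 0h and 3200, 2824 and 2559 at 24h, a change of -0.40 (adjusted p = 3.25e-05, DESeq2), after -0.33 at 3h (adjusted p = 0.0015). Which time had the larger T>C change depended on the fit. Without the surrogate variable it was -0.37 at 3h and -0.44 at 24h, and with culture as a block -0.37 and -0.45. The 3h change was called in neither T>C nor total reads without the surrogate variable. With culture as a block, the total-read change at 3h was not called.

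ZNF219 showed the largest fall. Its normalized T>C reads were 239, 203 and 210 at 0h, 261, 187 and 183 at 3h, and 124, 119 and 98.5 at 24h. The 24h libraries lay below all 6 others, while 0h and 3h overlapped. The log2 fold change at 24h was -0.79 (SE 0.19, adjusted p = 0.00124, DESeq2), and at 3h it was -0.14 (adjusted p = 0.991). Total reads were 1490, 1075 and 1506 at 0h, 1634, 1037 and 1238 at 3h, and 809, 654 and 798 at 24h, a change of -0.76 (SE 0.10, adjusted p = 5.21e-12, DESeq2) against 0h. Between 24h and 3h the change was -0.66 in both measures, called by DESeq2 in total reads (adjusted p = 1.95e-07) but not in T>C reads (adjusted p = 0.101). Its T>C share was 16.6% at 0h and 16.3% at 24h. The summed chondrocyte markers also fell over this time, as given above, and their part in the fall of ZNF219 was not tested.

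ZNF618, which binds the DNA-methylation reader UHRF2, was the most abundant member to fall. Its normalized T>C reads were 2120, 2232 and 2603 at 0h and 1879, 1955 and 1879 at 24h, with no overlap. The log2 fold change was -0.30 (SE 0.10, adjusted p = 0.0473, DESeq2), and -0.25 in total reads (adjusted p = 0.029). ZNF346, a binder of double-stranded RNA also named JAZ, had 537, 447 and 602 T>C reads at 0h and 284, 421 and 381 at 24h. These groups did not overlap either, and the change was -0.59 (SE 0.17, adjusted p = 0.0254, DESeq2), while its total reads changed by -0.47 with an SE of 0.22 and an adjusted p of 0.174, a fall that was called with culture as a block. ZNF532, which belongs to a chromatin complex with ZMYND8 and ZNF592, had 774, 560 and 736 T>C reads at 0h and 481, 559 and 424 at 24h. The fall was marked in S9CC13_R6 and S9CC47_R6 and all but absent in S9CC47_R5, with a fitted change of -0.36 (SE 0.13, adjusted p = 0.0941, DESeq2).

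A few further members passed only in total reads. ZNF316, a KRAB gene, had 1695, 1464 and 1797 normalized total reads at 0h and 1443, 1196 and 1067 at 24h (log2 fold change -0.36, SE 0.11, adjusted p = 0.0138, DESeq2). ZNF581 had 900, 806 and 1053 at 0h and 687, 709 and 720 at 24h (-0.34, adjusted p = 0.0418, DESeq2). ZNF444 had 741, 797 and 735 and then 542, 727 and 492 (-0.28, adjusted p = 0.0763, DESeq2). In each of the 3 genes the 24h libraries lay below those at 0h. ZNF827, which recruits NuRD to telomeres, was called higher at 24h than at 3h. Its total reads were 3256, 3883 and 3168 at 3h and 3771, 4453 and 3655 at 24h, higher in 3 of 3 cultures although the groups overlapped (0.23, SE 0.08, adjusted p = 0.0781, DESeq2). The call was lost with culture as a block (0.21, adjusted p = 0.158, DESeq2). Against 0h, its change at 24h was 0.07 (adjusted p = 0.635, DESeq2).

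**Figure D5:**
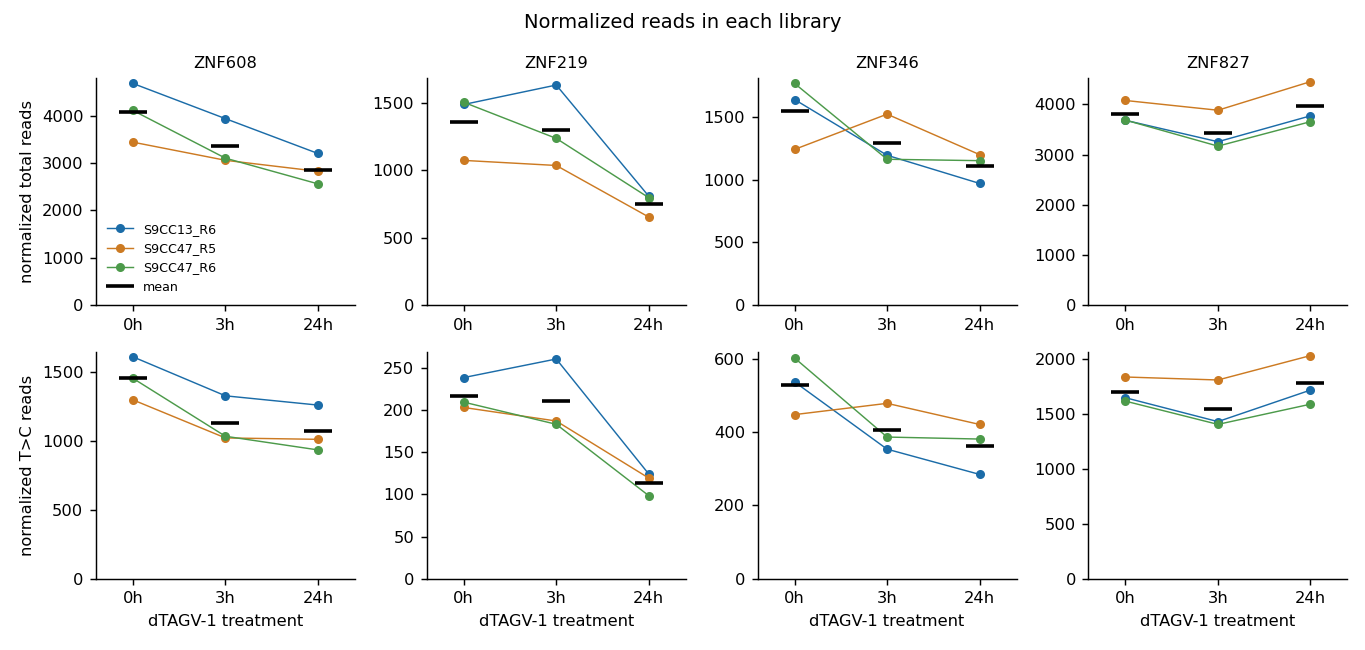
Normalized total reads (upper row) and T>C reads (lower row) of ZNF608, ZNF219, ZNF346 and ZNF827 by time of dTAGV-1, with a point for each library, a line for each culture and a bar for the group mean. ZNF219 is at 98.5 to 124 T>C reads at 24h, below the 183 to 261 of the earlier libraries, ZNF608 is already lower at 3h, and ZNF827 is lowest at 3h.

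By role, most members called lower in T>C reads at 24h were on the developmental list. The role lists were made with earlier results of these data known, so this split is a description only. Differences between lists were not tested. In T>C reads at 24h, where 2.59% of all genes and 4.02% of the others above the read minimum were lower, 3 of 8 developmental members were lower (ZNF219, ZNF608 and ZNF618), 1 of 12 chromatin members (ZNF532), 1 of 7 members acting on RNA, ribosomes or the spindle (ZNF346), and 0 of 5 that silence transposons or guard imprints. None of the 19 well-expressed KRAB partners was called in T>C reads. In total reads at 24h SETDB1 was lower by -0.27 (adjusted p = 0.068, DESeq2) and UHRF1 higher by 0.28 (adjusted p = 0.066).

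Most calls were lost when a culture was left out. Of the 5 members lower in T>C reads at 24h, none passed without S9CC13_R6 or without S9CC47_R6, and ZNF346 and ZNF532 passed without S9CC47_R5. For total reads at 24h, ZNF219 and ZNF608 were the 2 of the 7 that passed without S9CC47_R5 and again without S9CC47_R6, and none of the 7 passed without S9CC13_R6. Members outside the 7 were called as well, namely ZNF346, ZNF428 and ZNF480 as lower without S9CC47_R5 and ZNF428 as higher without S9CC13_R6. ZNF608 at 3h was called in neither T>C nor total reads when any one of the cultures was left out. Several fitted changes also shrank without S9CC13_R6, where the surrogate variable was estimated anew from the 2 remaining cultures. In T>C reads at 24h ZNF346 was then at -0.052 and ZNF532 at -0.078. In total reads ZNF581 was at -0.050, ZNF444 at -0.047, ZNF316 at -0.24, ZNF608 at -0.25 and ZNF618 at -0.16, while ZNF532 turned to 0.019. Yet many of the normalized reads given above were lower at 24h than at 0h in each remaining culture. This held for T>C reads of ZNF346 and, barely in S9CC47_R5, ZNF532, and for total reads of ZNF581, ZNF444, ZNF316 and ZNF608. Without S9CC47_R5 the T>C change at 24h was -0.91 for ZNF346 and -0.55 for ZNF532. Without S9CC47_R6 it was -0.18 for ZNF618, and ZNF608 in total reads at 3h was at -0.22.

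SOX9 binds DNA through an HMG box that prefers ACAAT and ACAAAG, so the promoters of the members with the largest fall at 24h and the earliest fall were read for these letters. Shown are the 250 bases before the start that RefSeq gives each gene (GRCh38.p14, strand of the gene), with these letters, or their reverse complements on the other strand, in capitals. By GENCODE, whose start for ZNF608 lies a few bases from that of RefSeq, ZNF219 spans chr14:21090077-21104722 and its window chr14:21104723-21104972, on the minus strand, while ZNF608 spans chr5:124636913-124748807 and its window chr5:124748825-124749074, also minus.
ZNF219: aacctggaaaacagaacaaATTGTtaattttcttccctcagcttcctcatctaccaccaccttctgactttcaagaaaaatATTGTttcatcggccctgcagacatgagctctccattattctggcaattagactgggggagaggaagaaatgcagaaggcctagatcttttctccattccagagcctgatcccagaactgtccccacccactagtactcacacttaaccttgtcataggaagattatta
ZNF608: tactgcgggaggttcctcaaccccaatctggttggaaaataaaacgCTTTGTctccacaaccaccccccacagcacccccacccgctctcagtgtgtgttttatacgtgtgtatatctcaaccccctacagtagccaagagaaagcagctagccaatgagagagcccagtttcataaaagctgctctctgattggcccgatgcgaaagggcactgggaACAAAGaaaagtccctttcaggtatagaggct
The ZNF219 window held ATTGT at 2 places and no ACAAAG on either strand, and the ZNF608 window held ACAAAG at 1 place and CTTTGT at 1 place, with no ACAAT. Read on both strands, ACAAT was in 25.2% of 27305 promoter windows of this length and in 13 of the 69 members that matched the table (18.8%). ACAAAG was in 13.7% of all windows and in 9 of the 69. The motifs share their first letters and can overlap. A match in these letters is a description and not a binding site.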

How the data were processed

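Raw counts per gene of total reads and of T>C reads, in 9 libraries, were used as deposited by the authors, without any normalization of theirs. Per the methods, read 1 was trimmed (skewer, poly(A)) and was mapped and counted on hg38 with slamdunk. The mapper could report several alignments per read, and the filter step was left at its default. Members and lists were chosen with earlier results of these data known.

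Genes classed as protein-coding, with 1 CPM or more in 3 or more libraries, entered one DESeq2 1.42.0 fit (R 4.3.3) with time, batch and 1 surrogate variable (sva 3.50.0), called at a Benjamini-Hochberg adjusted p under 0.1. Shares were tested with edgeR 4.0.16 as a time by conversion term. Named genes were the extremes of level, share and spread, called members, list examples and those next to the minimum. Cultures pair libraries by the clone and batch in the titles; deviations of paired libraries correlated at a mean r of 0.13 in T>C reads and 0.27 in total reads over 9 pairs. The fits were checked on simulated counts with known changes and with no batch or culture effect. There the total-read DESeq2 fit gave more false calls than edgeR, which was run without the surrogate variable. Gene models were GENCODE v44.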

Additional observations from a re-analysis of the deposited data

Results flagged for a closer look

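For 2 members the effect at 24h differed from that at 3h in total reads, by a DESeq2 test of the later against the earlier time at an adjusted p under 0.1. ZNF219 was lower at 24h than at 3h by -0.66 on the log2 scale, and ZNF827 was higher by 0.23. Each had the same direction in 3 of 3 cultures. With culture as a replicate block the ZNF219 difference was called, and that of ZNF827 was not (adjusted p = 0.158, DESeq2). The ZNF827 call was lost in 6 of 8 alternatives and the ZNF219 call in 1.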

How the results depend on the processing

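No member's T>C share was called at 3h or 24h under any alternative. With 1 replicate left out at a time, T>C calls at 3h went from 1 to 0 throughout, those at 24h from 5 to between 0 and 2, and those between 24h and 3h stayed at 0. Such calls in total reads were 0 or 1 at 3h, 1 to 5 at 24h, and 1 to 3 between the times. The 1 at 3h was ZNF346, called without S9CC47_R5, and not ZNF608. ZNF532 in total reads at 24h ran from -0.35 without S9CC47_R5 to 0.019 without S9CC13_R6, where its sign turned. Without S9CC47_R6 no surrogate variable could be estimated, so those count fits, added after seeing the data, had none. With culture as a replicate block, paired T>C calls numbered 1 at 3h, 5 at 24h and 3 between the times, and paired total-read calls 0, 8 and 7. Without the surrogate variable, T>C calls at 3h were 0 and between the times 1, and total-read calls at 3h were 0 and between the times 5. Size factors from total reads gave 3 T>C calls at 3h and 3 between the times. With all genes of at least 1 count, calls between the times were 1 in T>C and 5 in total reads. edgeR called 1 in T>C reads there, and an adjusted p under 0.05 left 1 in total reads. The contrast of total reads between 24h and 3h was added after seeing the data.

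The gap in share kept its direction throughout. With each culture left out it was 13.5 to 15.0 points at 0h, 11.9 to 13.2 at 3h and 14.6 to 15.8 at 24h. From summed reads it was 10.2 points at 3h and 13.2 at 24h, and with at least 1000 reads it was 16.8 at 24h. With that minimum, 27 of 30 members lay above their band in 3 of 3 cultures at 0h. Of 134 values for single genes under other settings, 83 kept their call, 50 lost it and 1 reversed. The cause of these changes was not tested.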
